A study of Homo sapiens with 26 samples.

Results

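Chromosome 8 carried 4876 of the 87206 sites at which the estrogen receptor (ER) or the progesterone receptor (PR) was called in 10 lists, and this is an account of where along the chromosome those sites lie. A site was a member when it lay on chromosome 8 of the hg19 build and did not overlap the window from 128548315 to 128953680, which was left out. The left-out window held 4 to 19 sites of each list. The members were chosen by the called positions themselves, so their counts are a description and carry no test. The sites come from chromatin immunoprecipitation and sequencing (ChIP-seq) of PR-deficient T47D cells and of T47D cells, a human breast cancer cell line that has both receptors. All cells had been deprived of steroids and were then given 10 nM estradiol (E2, the main natural estrogen) and 10 nM R5020 (a synthetic progestin) together, R5020 alone or E2 alone for 45 min. ER was precipitated in PR-deficient and in T47D cells, PR in T47D cells, and ER followed by PR (reChIP) in T47D cells given both hormones. Per the labels, vehicle libraries had been subtracted from each list, together with an IgG control for the reChIP list. With 1 library behind each of the 10 lists there is no spread between replicates and no difference between lists was tested. Intervals are exact Clopper-Pearson 95% intervals that cover counting error over sites only. The sources used here do not say how the PR-deficient cells were made or whether they are 1 clone.

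ER and PR are steroid receptors that, once bound by their hormone, gather at enhancers and promoters, mostly far from gene starts, and recruit coactivators or corepressors there. ER and PR meet in luminal breast cells because ER drives PR expression, and many of their sites lie in the same open chromatin. Breast cancer genomes often hold extra copies of the long (q) arm of chromosome 8 and often lack part of the short (p) arm. The copy number of the cells was not analysed here, and no gene is named because no annotation of the hg19 build was used.

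The lists differ in kind, which touches every overlap below. On chromosome 8 the median site was 1328 bp long in the PR-deficient ER list of E2+R5020, 1074 bp in that of E2 and 1107 bp in the T47D ER list of E2. The other 7 lists had medians of 149 to 289 bp. The score of a site is the authors' own value and was used within a list only. Of the chromosome 8 sites, 80.8% lay at the lowest 2 scores of the list in PR-deficient ER with R5020 (81.2% over all chromosomes) and 77.8% in T47D ER with R5020 (70.8%). For PR it was 68.4% with E2+R5020 (63.7%), 67% with R5020 (61.8%) and 83.7% with E2 (84.7%). In the remaining 5 lists the share was 9.43 to 28.3% on chromosome 8. The read depth behind the lists is unknown.

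The chromosome held a smaller part of the PR-deficient ER lists than of the PR lists. In PR-deficient cells the ER share was 3.94% (3.45 to 4.48, 223 of 5663) with E2+R5020, 3.07% (2.73 to 3.45, 281 of 9141) with R5020, and with E2 it was 3.89% (3.47 to 4.34, 301 of 7742). The PR share was 8.1% (7.61 to 8.6, 964 of 11908 sites) with E2+R5020, 8.78% (8.09 to 9.5, 558 of 6358) with R5020, and with E2 it was 7.55% (6.98 to 8.15, 601 of 7961). The chromosome makes up 4.73% of the length spanned by sites, so the PR-deficient lists lay below that figure and the PR lists above it. T47D ER lay on either side of it by treatment, at 4.64% (4.34 to 4.94, 891 of 19220) with E2+R5020, 7.25% (6.57 to 7.98, 387 of 5338) with R5020 and, with E2, 3.71% (3.15 to 4.34, 149 of 4014). Over whole lists, the widest gap between the lines was therefore with R5020, 3.07% in PR-deficient cells against 7.25% in T47D cells. The intervals cover counting error over sites only, so they do not test the lines against each other. Among the 500 highest-scoring sites with R5020, PR-deficient cells gave 3.2% (1.84 to 5.14) and T47D cells 4.2% (2.62 to 6.35). The intervals of these best sites overlap. The reChIP share was 5.28% (4.85 to 5.74, 521 of 9861). By number of sites the chromosome ranked 3 of 24 in the 3 PR lists and in T47D ER with R5020, and 8 to 16 in the other 6.

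**Figure D1:**
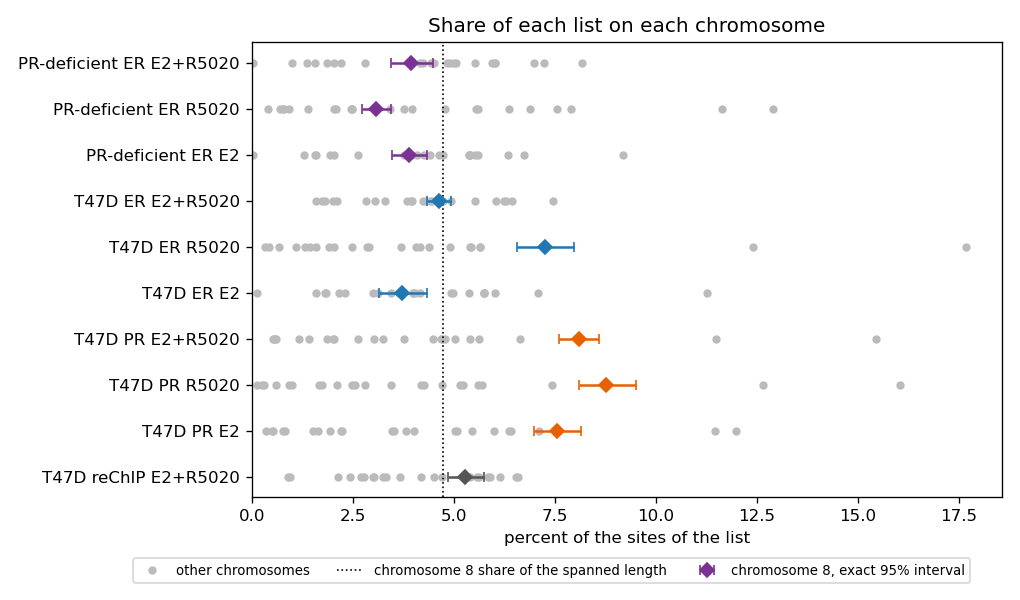
Share of the sites of each list that lies on each chromosome (x axis, percent of the list's sites; 1 row per list). Diamonds are chromosome 8 without the left-out window, with exact 95% intervals, and grey points are the other chromosomes. The PR-deficient ER lists sit between 3.07 and 3.94%, left of the dotted line at 4.73%, and the PR lists between 7.55 and 8.78%, right of it.

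The best sites of the PR lists with R5020 and with both hormones, and of T47D ER with R5020, were less frequent on the chromosome than those lists as a whole. In PR-deficient cells the 500 highest-scoring sites gave 5.2% (3.42 to 7.53) with E2+R5020, 3.2% (1.84 to 5.14) with R5020 and 4.6% (2.94 to 6.82) with E2, and each interval includes the share of the whole list. Among the best 500 PR sites, chromosome 8 held 23 with E2+R5020 (4.6%, 2.94 to 6.82), 28 with R5020 (5.6%, 3.75 to 7.99) and 36 with E2 (7.2%, 5.09 to 9.83). T47D ER with R5020 had 21 of its 500 best sites there (4.2%, 2.62 to 6.35), against 7.25% of the whole list. In 3 of these 4 lists the interval of the best sites lies below the share of the whole list, and PR with E2 is the exception. The best 500 sites gave 3% (1.69 to 4.9) for T47D ER with E2+R5020, 3.6% (2.15 to 5.63) with E2 and 6.4% (4.42 to 8.92) for reChIP, each with an interval that includes the whole list. In the higher-scoring 50% of T47D ER with R5020, which includes sites at the lowest 2 scores, the share was 7.04%.

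Sites were spread unevenly over the 30 bins of 5 Mb that cover the chromosome. With each list given equal weight, the fullest bin was 140 to 145 Mb, which held 16.4% of the sites on average, although a bin is 3.42% of the length. Next came 100 to 105 Mb with 6.7% and 35 to 40 Mb with 5.68%. The last bin, from 145 Mb, averaged 5.03% although it is cut short at 146300810, where the last site ends. Its count thus understates its sites per Mb beside whole bins, and the order given here is by count only. The emptiest bins, 105 to 110 Mb and 15 to 20 Mb, averaged 0.895% and 0.912%. The bin of 140 to 145 Mb was the fullest in 8 of the 10 lists. The exceptions were T47D ER with E2+R5020, whose fullest bin was 85 to 90 Mb with 108 of 891 sites (12.1%, 10.1 to 14.4), and T47D ER with E2, whose fullest bin was 35 to 40 Mb with 14 of 149 sites (9.4%, 5.23 to 15.3).

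**Figure D2:**
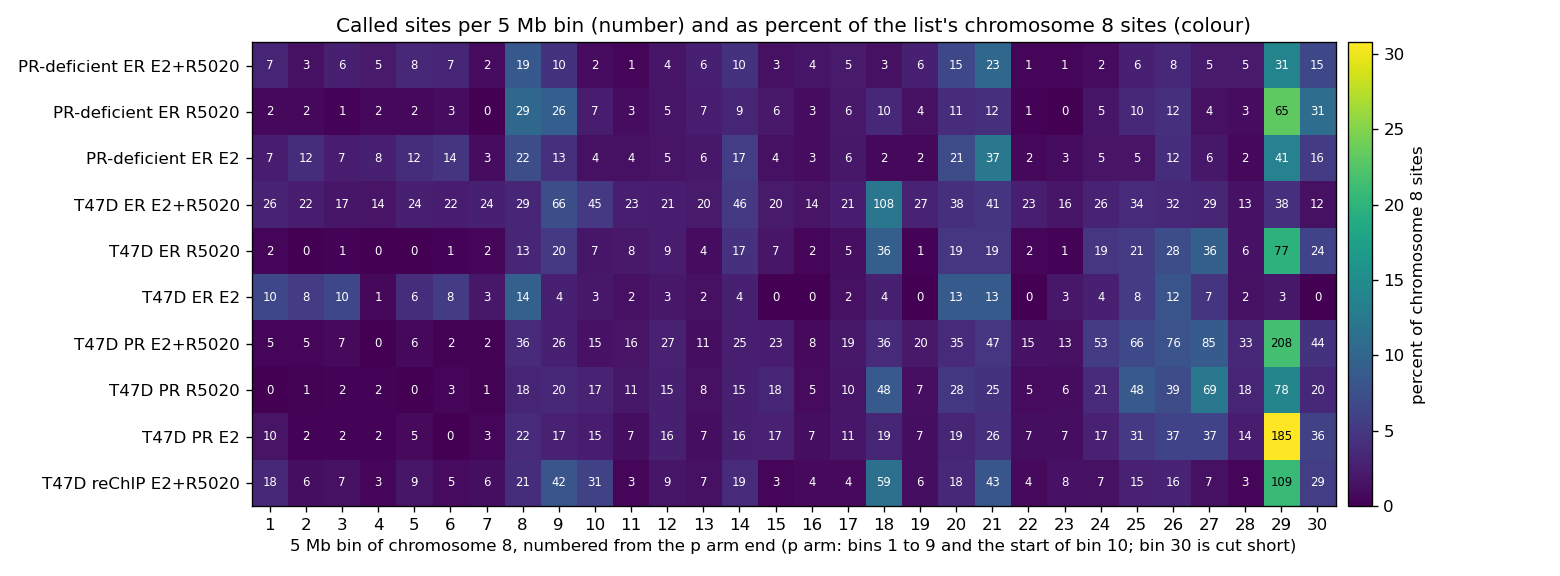
Number of called sites in each 5 Mb bin of chromosome 8 (columns, bins numbered from the p arm end) for each list (rows), with the colour giving the percent of the list's chromosome 8 sites. Bin 29 (140 to 145 Mb) holds 208 sites of PR with E2+R5020 and 3 of T47D ER with E2, and bins 1 to 7 are nearly empty in the PR lists and in the R5020 lists of ER.

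The bin of 140 to 145 Mb, close to the q arm end, held the most sites in the PR lists of E2+R5020 and of E2, and nearly none in T47D ER with E2. PR had 208 sites there with E2+R5020 (21.6%, 19 to 24.3), 78 with R5020 (14%, 11.2 to 17.1) and 185 with E2 (30.8%, 27.1 to 34.6). For ER, PR-deficient cells had 31 sites with E2+R5020 (13.9%, 9.64 to 19.1), 65 with R5020 (23.1%, 18.3 to 28.5) and 41 with E2 (13.6%, 9.96 to 18). T47D cells had 38 ER sites with E2+R5020, 77 with R5020 (19.9%, 16 to 24.2) and 3 of 149 with E2. With E2 the bin thus held 13.6% of the PR-deficient ER sites and 3 single sites in T47D, and reChIP had 109 sites there (20.9%, 17.5 to 24.7). Among all 632 bins of the genome this bin ranked 2 for PR with E2, 6 for PR with E2+R5020, 7 for reChIP, 8 for PR with R5020 and 9 for T47D ER with R5020. For PR-deficient ER it ranked 35 with E2+R5020, 31 with R5020 and 31 with E2. Of the 682 merged regions in the bin, 587 came from 1 list only, 168 of them from PR with E2+R5020 and 148 from PR with E2, close to the share on the whole chromosome (3222 of 3820, 84.3%). The part of sites in another list differed by list, with 30 of 31 in PR-deficient ER with E2+R5020, 34 of 41 in that with E2, 40 of 208 in PR with E2+R5020 and 37 of 185 in PR with E2. For reChIP it was 26 of 109 (23.9%, 16.2 to 33), against 37.2% on the whole chromosome. Low scores were a little more frequent there in some lists: 87% (77.4 to 93.6) of the T47D ER sites with R5020 lay at the lowest 2 scores, against 75.5% (70.3 to 80.2) on the rest of the chromosome. PR with E2 gave 84.3% there and 83.4% elsewhere, a gap within its interval.

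The distal q arm as a whole, from 115 Mb to the end, was fullest in the PR lists and in ER with R5020. The stretch is 21.4% of the length and was marked off after the bins had been seen. PR had 58.6% (55.4 to 61.7) of its chromosome 8 sites there with E2+R5020, 52.5% (48.3 to 56.7) with R5020 and 59.4% (55.4 to 63.4) with E2. For ER with both hormones it was 32.3% (26.2 to 38.9) in PR-deficient cells and 20.7% (18 to 23.5) in T47D cells. With R5020 it was 46.3% (40.3 to 52.3) in PR-deficient cells and 54.5% (49.4 to 59.6) in T47D cells. With E2 it was 28.9% (23.8 to 34.4) of the ER sites in PR-deficient cells and 24.2% (17.5 to 31.8) in T47D cells. Within T47D cells the ER share was therefore close to the length of the stretch with both hormones, 54.5% with R5020 alone and again close with E2.

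The p arm, up to the border at 45600000, was sparsest in the PR lists and in T47D ER with R5020. It is 31.2% of the length and held 9.23% (7.48 to 11.2, 89 of 964) of the PR sites with E2+R5020, 8.42% (6.25 to 11, 47 of 558) with R5020 and, with E2, 10.5% (8.15 to 13.2, 63 of 601). PR-deficient ER had 30% (24.1 to 36.5, 67 of 223) with E2+R5020, 23.8% (19 to 29.3, 67 of 281) with R5020 and, with E2, 32.6% (27.3 to 38.2, 98 of 301). T47D ER had 27.4% (24.5 to 30.4, 244 of 891) with E2+R5020, 10.1% (7.26 to 13.5, 39 of 387) with R5020 and, with E2, 43% (34.9 to 51.3, 64 of 149). For reChIP it was 22.5% (18.9 to 26.3, 117 of 521). Per Mb, PR with E2+R5020 had 1.95 sites on the p arm and 8.69 on the q arm, a ratio of 0.225. The ratio of the p arm to the q arm was 0.203 for PR with R5020, 0.259 for PR with E2 and 0.247 for T47D ER with R5020. It was 0.948 with E2+R5020, 0.691 with R5020 and 1.07 with E2 for PR-deficient ER, and 0.833 with E2+R5020 and 1.66 with E2 for T47D ER. Only PR-deficient and T47D ER with E2 had more sites per Mb on the p arm than on the q arm among the 10 lists. In the higher-scoring 50% of each list the p arm held 8.16% of the PR sites with E2+R5020, 9.27% with R5020 and 12.7% with E2, and 10.1% of the T47D ER sites with R5020. Over all chromosomes, 61.8 to 84.7% of the sites of these lists lay at the lowest 2 scores. The higher-scoring 50% therefore includes such sites, with ties at the cut drawn at random, and is not a set of strong sites only. Without the lowest score of each list the p arm held 8.74%, 8.6%, 11.8% and 9.95% in the same order.

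**Figure D3:**
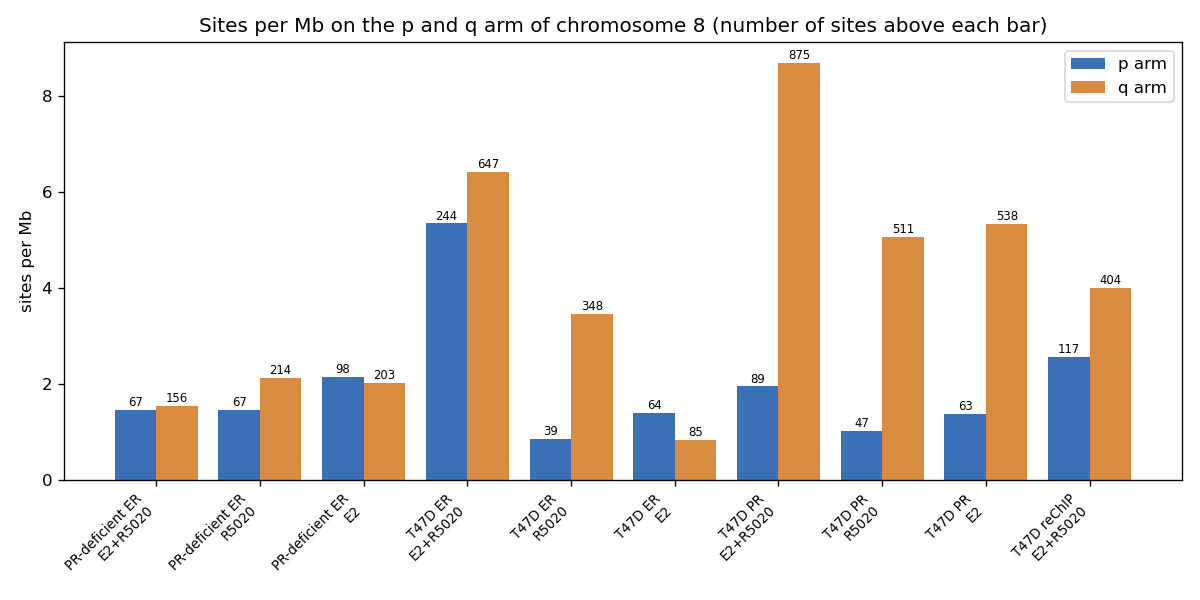
Sites per Mb (y axis) on the p arm (left bar) and the q arm (right bar) of chromosome 8 in each list, with the number of sites above each bar. The q arm bars of the PR lists reach 5.07 to 8.69 sites per Mb beside p arm bars of 1.03 to 1.95, while T47D ER with E2 has 1.4 on the p arm and 0.844 on the q arm.

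The outer part of the p arm held few sites of the PR lists and of ER with R5020. The first 35 Mb, 23.9% of the length and marked off after the bins had been seen, held 27 of the 964 PR sites with E2+R5020 (2.8%, 1.85 to 4.05), 9 of 558 with R5020 (1.61%, 0.74 to 3.04) and 24 of 601 with E2 (3.99%, 2.58 to 5.88). The first PR site with R5020 began at 8447660. PR-deficient ER had 38 sites there with both hormones (17%, 12.3 to 22.6), 12 with R5020 (4.27%, 2.23 to 7.34) and 63 with E2 (20.9%, 16.5 to 26). T47D ER had 149 with both hormones (16.7%, 14.3 to 19.3), 6 with R5020 (1.55%, 0.571 to 3.34) and 46 with E2 (30.9%, 23.6 to 39). In both lines, the part of the ER list on these first 35 Mb was thus smallest with R5020. Just beyond, counts stood higher in all lists: PR with E2+R5020 had 2 sites at 30 to 35 Mb and 36 at 35 to 40 Mb, and PR-deficient ER with R5020 had 0 and 29. PR-deficient ER with E2 had 3 and 22, T47D ER with E2 3 and 14, and T47D ER with E2+R5020 24 and 29.

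The arm border and the left-out window have their own neighbours. No list had a site between 43838780 and 46838962, a stretch of 3 Mb around the border, so moving the border within it changes no count. Whether the build holds sequence there to which reads can be assigned was not examined, so the lack of sites is not a result on binding. The last p arm site (43838491 to 43838780, 290 bp) and the first q arm site (46838962 to 46839427, 466 bp) were both reChIP sites, with scores of 190.54 and 155.9. The nearest members to the window were a PR-deficient ER site of R5020 (128499679 to 128499881, score 33.99) before it and a T47D ER site of R5020 (128961838 to 128962206, score 20.07) after it. The first and the last site left out were both PR sites of E2+R5020, 316 and 260 bp long and with a score of 17.62 each.

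By count per bin, and outside 140 to 145 Mb, the ER sites of E2 were most numerous at 35 to 40 Mb and at 95 to 105 Mb. The stretch of 95 to 105 Mb was also marked off after the counts had been seen. The last bin, cut short at 146300810, held 16 of the PR-deficient sites and 0 of the T47D sites. For PR-deficient cells its count thus understates its sites per Mb beside whole bins. At 100 to 105 Mb, E2 gave 37 of 301 ER sites in PR-deficient cells and 13 of 149 in T47D cells. At 95 to 100 Mb it gave 21 in PR-deficient cells and 13 in T47D cells. At 100 to 105 Mb, 6 of the 37 PR-deficient sites lay at the lowest 2 scores (16.2%, 6.19 to 32; 17.4% on the rest of the chromosome) and 1 of the 13 T47D sites (7.69%, 0.195 to 36; 14%), both within counting error of the rest. Of the sites of 95 to 105 Mb, 46 of 58 (79.3%, 66.6 to 88.8) in PR-deficient cells and 19 of 26 (73.1%, 52.2 to 88.4) in T47D cells overlapped another list, near the 77.1% of the PR-deficient and 67.1% of the T47D sites of E2 on the whole chromosome. For reChIP it was 41 of 61 (67.2%, 54 to 78.7), against 37.2% on the whole chromosome. For PR with R5020 it was 5 of 53 (9.43%, 3.13 to 20.7), against 21% on the whole chromosome.

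Dense stretches were then sought, as runs of at least 5 sites of 1 list whose neighbouring centres lay at most 50 kb apart. Such runs held 434 of 964 PR sites with E2+R5020 (45%, in 40 runs; 41.6% over all chromosomes), 160 of 558 with R5020 (28.7%, in 18; 32.2%) and 242 of 601 with E2 (40.3%, in 23; 29.4%). PR with E2 stood above its background on chromosome 8 (36.3 to 44.3). PR with E2+R5020 (41.8 to 48.2) was just above its own and PR with R5020 near it. PR-deficient ER had 17 sites in 3 runs with E2+R5020 (7.62%, background 13.2%), 76 in 7 runs with R5020 (27%, 42.7%) and 55 in 8 runs with E2 (18.3%, 19.6%). T47D ER had 217 in 14 runs with E2+R5020 (24.4%, background 26.8%), 95 in 12 runs with R5020 (24.5%, 36.2%) and 5 in 1 run with E2 (3.36%, 6.85%). ReChIP had 246 in 16 runs (47.2%, 43.6%). ER with R5020 lay below its background in PR-deficient (21.9 to 32.6) and T47D cells (20.3 to 29.2), as did PR-deficient ER with E2+R5020 (4.5 to 11.9). A run is easier to reach in a list of more sites, so the lists are not ranked by these shares. The backgrounds were not matched for sites per Mb, and no difference from them was tested. In the higher-scoring 50% of each list, runs held 21.2% of the PR sites with E2+R5020, 12.5% with R5020 and 14.1% with E2, and 10.3% of the PR-deficient and 11.7% of the T47D ER sites with R5020. Fewer sites remain there to form runs, which by itself lowers these shares.

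The run with the most sites lay at 86728941 to 86837670 in T47D ER with E2+R5020, with 75 sites in 109 kb and a median of 718 bp between neighbouring centres. The same place held the fullest run of T47D ER with R5020 (26 sites) and of PR with R5020 (39 sites). It held 25 PR sites with E2+R5020, 12 with E2 and 39 reChIP sites. In PR-deficient cells it held 1 ER site with E2+R5020, 6 with R5020 and 1 with E2, against 75 with E2+R5020, 26 with R5020 and 4 with E2 in T47D cells. As a share of the chromosome 8 ER sites with R5020 this was 2.14% (0.788 to 4.59) in PR-deficient cells and 6.72% (4.44 to 9.69) in T47D cells. Of the T47D ER sites there, 44 of 75 with E2+R5020 (58.7%, against 23.3% on the whole chromosome) and 24 of 26 with R5020 (92.3%, against 33.3%) overlapped another list. For PR it was all 25 with E2+R5020 (22.6% on the whole chromosome), 32 of 39 with R5020 (82.1%, against 21%) and all 12 with E2 (21.1%). For reChIP it was 16 of 39 (41%), near the 37.2% of the whole chromosome. Where sites are packed this closely, an overlap of 1 bp is reached far more easily than on the chromosome as a whole. The share that packing alone would give was not computed, so these shares are not a result on joint binding. The median score there was 29.5 in T47D ER with E2+R5020 and 23.59 in PR with R5020, each equal to the median of its whole list. It was above the median of the list in PR-deficient ER with R5020 (41.3, against 29.13), T47D ER with R5020 (20.07, against 18.25), PR with E2+R5020 (22.03, against 17.62), PR with E2 (26.7, against 21.85) and reChIP (60.63, against 51.97), and below it in the other 3 lists, which had 1 to 4 sites there. The 4 ER sites of E2 in T47D cells all lay at the lowest 2 scores. One site stood out, the PR site of E2 from 86778815 to 86779190, which ranked 3 of 7961 with a score of 50.98 and leads the chromosome in its list. How many separate binding events sites packed this closely stand for cannot be read from the lists. How well reads can be placed in this stretch was not examined, so its counts and scores cannot be read as strong binding.

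**Figure D4:**
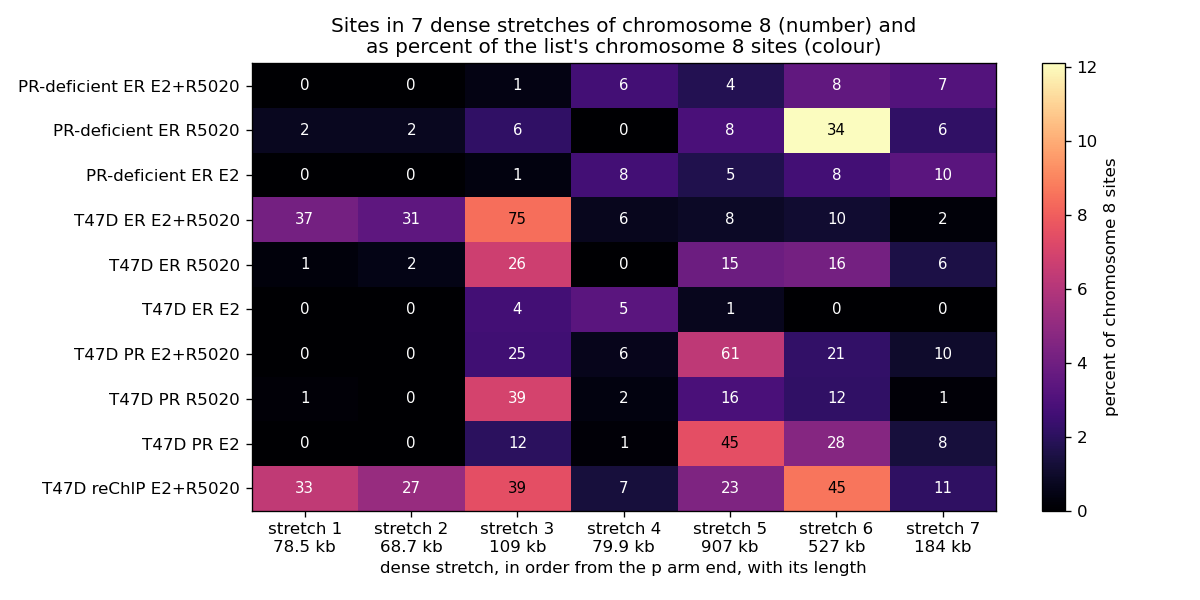
Number of sites of each list (rows) in 7 dense stretches of chromosome 8 (columns, in order from the p arm end, with their length in kb), and, as colour, the percent of the list's chromosome 8 sites. Stretches 1 and 2, on either side of the long empty stretch, hold 37 and 31 T47D ER sites of E2+R5020 and 33 and 27 reChIP sites, and 0 to 2 in each of the other lists; stretch 3 holds 75 T47D ER sites of E2+R5020.

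On either side of the empty stretch at the arm border lay a pair of short runs that belonged to 2 lists. At 43760303 to 43838780, T47D ER with E2+R5020 had 37 sites and reChIP 33, PR-deficient ER with R5020 had 2, and T47D ER and PR with R5020 had 1 each. At 46838962 to 46907672 there were 31 T47D ER sites with E2+R5020 and 27 reChIP sites, and 2 ER sites with R5020 in each line. The remaining 5 lists had 0 sites in both places. These sites scored high: the median was 46.35 and 54.78 in T47D ER with E2+R5020, against 29.5 over its whole list, and 138.58 and 147.24 in reChIP, against 51.97. How well reads can be placed beside the empty stretch was not examined, so these scores cannot be read as strong binding. At the first place 5 of 37 T47D ER sites and at the second 6 of 31 overlapped another list (13.5% and 19.4%, against 23.3% on the whole chromosome), and for reChIP 7 of 33 and 5 of 27 did (21.2% and 18.5%, against 37.2%). Without the sites within 2 Mb of such empty stretches, the p arm share was 23.6% for T47D ER with E2+R5020 and 16.9% for reChIP.

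Other runs lay on both arms, among them 9 sites of PR-deficient ER with E2 at 37404201 to 37461212, 8 of PR-deficient ER with R5020 at 38230148 to 38370696 and 9 of PR with E2+R5020 at 37631494 to 37746540 on the p arm. The fullest runs of the lists not yet described lay on the q arm. The fullest run of PR-deficient ER with E2+R5020 was 6 sites at 102448962 to 102516813, a number it also reached on the p arm, and that of T47D ER with E2 was 5 sites at 102485942 to 102528845. The joined place held 8 ER sites of E2 in PR-deficient cells and 5 in T47D cells, and no ER site of R5020 in either line. At 141836784 to 142743390, a run of 61 PR sites with E2+R5020 spread over 907 kb, with 45 PR sites of E2, 16 of R5020 and 1 ER site of E2 in T47D cells. Of the 61 sites, 44 lay at the lowest 2 scores (68.4% of the list on the whole chromosome) and 13 overlapped another list (21.3%, against 22.6% on the whole chromosome). At 144294791 to 144821498, reChIP had 45 sites and PR-deficient ER with R5020 34, against 16 for T47D ER with R5020. The fullest run of PR-deficient ER with E2 was 10 sites at 144949908 to 145134084, where T47D ER with E2 had 0.

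The lists of wide sites shared the largest part of their sites. Of the chromosome 8 sites, 200 of 223 (89.7%, 84.9 to 93.3) of PR-deficient ER with E2+R5020 overlapped at least 1 other list by 1 bp or more, against 88.6% over all chromosomes. With R5020 it was 129 of 281 (45.9%, 40 to 51.9; 39.9% over all chromosomes) and with E2 232 of 301 (77.1%, 71.9 to 81.7; 74.9%). T47D ER had 208 of 891 (23.3%, 20.6 to 26.3; 20.8%) with E2+R5020, 129 of 387 (33.3%, 28.7 to 38.3; 46.3%) with R5020 and 100 of 149 (67.1%, 59 to 74.6; 68.6%) with E2. PR had 218 of 964 (22.6%, 20 to 25.4; 33.4%) with E2+R5020, 117 of 558 (21%, 17.7 to 24.6; 24%) with R5020 and 127 of 601 (21.1%, 17.9 to 24.6; 23.7%) with E2. ReChIP had 194 of 521 (37.2%, 33.1 to 41.5; 43.2%). On chromosome 8, T47D ER with R5020, PR with E2+R5020 and reChIP thus shared a smaller part of their sites than over the genome. Their intervals exclude the genome value. PR-deficient ER with R5020 shared a larger part, with a lower limit (40%) just above its genome value (39.9%). None of these differences was tested. With at least 50% of both sites overlapping, a rule that sites differing widely in length cannot meet, the shares came to 8.9% for PR-deficient ER with R5020, 5.73% for PR with R5020 and 11.8% for PR with E2.

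**Figure D5:**
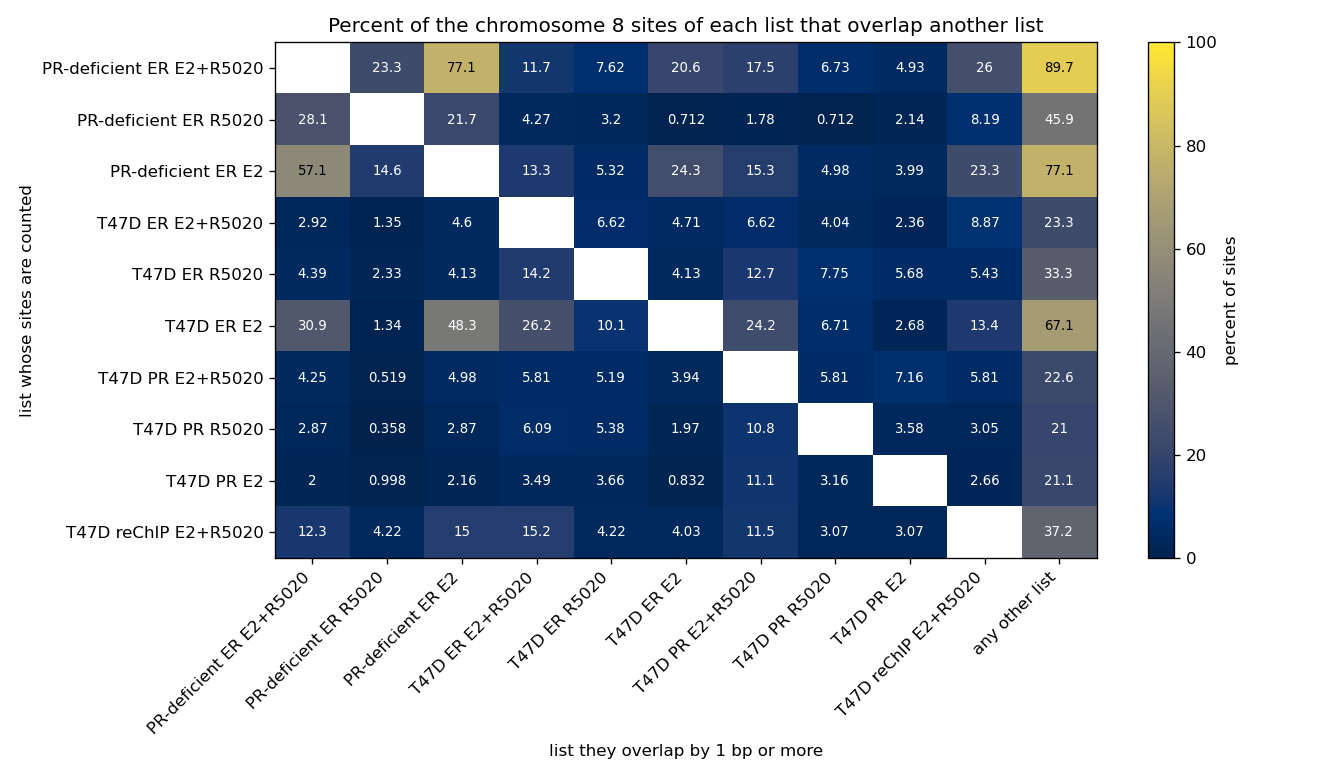
Percent of the chromosome 8 sites of each list (rows) that overlap a site of each other list (columns) by 1 bp or more, with the last column for any other list. The pairs of ER lists of E2 and of wide sites stand out, up to 77.1% for PR-deficient ER with E2+R5020 in that with E2, while most pairs that include a PR list lie below 15%.

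Between the lines, ER sites of E2 coincided most. With E2, 73 of 301 PR-deficient sites (24.3%, 19.5 to 29.5; 29% over all chromosomes) lay in the T47D list, and 72 of 149 T47D sites (48.3%, 40.1 to 56.6; 54.9%) in the PR-deficient list. With R5020 it was 9 of 281 PR-deficient sites (3.2%, 1.47 to 5.99; 3.97%) and 9 of 387 T47D sites (2.33%, 1.07 to 4.37; 6.78%). With both hormones it was 26 of 223 PR-deficient sites (11.7%, 7.76 to 16.6; 14.8%) and 26 of 891 T47D sites (2.92%, 1.91 to 4.25; 4.77%). For T47D the chromosome 8 values with R5020 and with both hormones lie below their background, with intervals that exclude it. Of the 64 T47D sites of E2 on the p arm, 57.8% were listed in PR-deficient cells, and of the 85 on the q arm 41.2%. In the other direction it was 37.8% of 98 PR-deficient sites on the p arm and 17.7% of 203 on the q arm. No interval was computed for these shares and the arms were not tested against each other.

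The 3 treatments of an antibody in a cell line had the same vehicle library subtracted, so their overlaps are a description and not a result on treatment. For PR-deficient ER, 52 of 223 sites of E2+R5020 (23.3%; 25.1% over all chromosomes) lay in the list of R5020 and 172 (77.1%; 75.4%) in that of E2, while 79 of 281 sites of R5020 (28.1%; 20.2%) and 172 of 301 of E2 (57.1%; 55.5%) lay in the list of both hormones. There, 61 of the R5020 sites (21.7%; 15.4%) lay in the E2 list and 44 of the E2 sites (14.6%; 14.7%) in the R5020 list. For T47D ER, 59 of 891 sites of E2+R5020 (6.62%; 4.98%) lay in the list of R5020 and 42 (4.71%; 4.47%) in that of E2, while 55 of 387 sites of R5020 (14.2%; 17.7%) and 39 of 149 of E2 (26.2%; 19.5%) lay in the list of both. Between the single hormones it was 16 of the R5020 sites (4.13%; 5.21%) and 15 of the E2 sites (10.1%; 6.35%). For PR, 56 of 964 sites of E2+R5020 (5.81%; 6.71%) lay in the list of R5020 and 69 (7.16%; 8.41%) in that of E2, while 60 of 558 sites of R5020 (10.8%; 14.1%) and 67 of 601 of E2 (11.1%; 12.2%) lay in the list of both. Between the single hormones it was 20 of the R5020 sites (3.58%; 2.77%) and 19 of the E2 sites (3.16%; 2.11%). The E2 sites of T47D ER, wide beside the narrow sites of both hormones, lay in that list in 2.01% where 50% of both sites had to overlap.

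ER and PR coincided at few sites of the chromosome. With both hormones, 59 of 891 ER sites (6.62%, 5.08 to 8.46; 5.16% over all chromosomes) lay at a PR site and 56 of 964 PR sites (5.81%, 4.42 to 7.48; 8.07%) at an ER site. With R5020 it was 30 of 387 ER sites (7.75%, 5.29 to 10.9; 8.28%) and 30 of 558 PR sites (5.38%, 3.66 to 7.59; 7.66%). With E2 it was 4 of 149 ER sites (2.68%, 0.736 to 6.73; 2.37%) and 5 of 601 PR sites (0.832%, 0.271 to 1.93; 1.26%). All 30 of the shared ER sites of R5020 lay on the q arm, which holds 89.9% of that list on the chromosome. Of the reChIP sites, 79 of 521 (15.2%, 12.2 to 18.5; 19.5%) lay at an ER site and 60 (11.5%, 8.9 to 14.6; 12.2%) at a PR site of both hormones. In the other direction, 79 of 891 ER sites (8.87%; 10.3%) and 56 of 964 PR sites (5.81%; 9.72%) lay at a reChIP site.

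All sites merged into 3820 regions, of which 3222 (84.3%) held 1 list, 373 (9.76%) held 2 and 40 held 5 or more. No region held 9 or all 10. Of the 40, 36 held PR with E2+R5020, 30 reChIP, 29 each T47D ER with E2+R5020 and PR-deficient ER with E2, and 4 PR-deficient ER with R5020. In the same order these lists have 964, 521, 891, 301 and 281 of the 4876 sites, and a longer list is more easily held by a region. By place, 10 of the 40 lay at 95 to 105 Mb, 8 at 85 to 90 Mb, 5 at 65 to 70 Mb, 6 on the p arm and 3 in the fullest bin of 140 to 145 Mb. Of the 4876 sites, 217 lay at 95 to 100 Mb, 286 at 100 to 105 Mb, 325 at 85 to 90 Mb and 178 at 65 to 70 Mb. The bin of 140 to 145 Mb held 682 of all 3820 regions. Whether any count by list or place exceeds its background was not tested. In 14 of the 40, no single base was covered by every list of the region, so the count of lists there rests on sites that adjoin through others.

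The region of most lists, 66933712 to 66935256, held 8 lists, 7 of them at 1 base. PR with E2+R5020 had its highest-scoring site of the chromosome there (66934336 to 66935157, score 101.34, rank 16 of 11908). T47D ER had the site ranked 2 on the chromosome there with E2+R5020 (score 117.99, rank 63 of 19220) and with R5020 (score 36.49, rank 61 of 5338), and the reChIP site ranked 5 of 521 on the chromosome (score 441.71). PR-deficient ER had sites with E2+R5020 (score 143.43) and E2 (score 225.76). The PR sites of R5020 and E2 were narrow, 104 and 245 bp, and ranked 184 of 558 and 178 of 601 on the chromosome. PR-deficient ER with R5020 and T47D ER with E2 had none.

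The 2 regions of 7 lists lay close together, at 102485707 to 102486967 and 103119711 to 103120910. In each, all 7 lists covered a common base, and PR-deficient ER with R5020 and PR with E2 were missing. The T47D ER lists differed between them: E2+R5020 was present and R5020 missing at the first, and the reverse held at the second.

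The 12 regions of 6 lists fell into a few patterns. At 96705019 to 96706384, 98775820 to 98777681 and 102515985 to 102517125, the same 6 lists were present, namely ER with E2+R5020 and with E2 in both lines, PR with both hormones and reChIP. The E2 sites of PR-deficient cells ranked 8, 5 and 23 of 301 on the chromosome there, and those of T47D cells 2, 1 and 4 of 149. At 37721165 to 37722093 and 129153571 to 129155119, all 3 PR lists and reChIP met PR-deficient ER with E2+R5020 and with E2, and no T47D ER list had a site. At the second of these, at most 5 of the 6 lists covered any base, since the PR sites of R5020 and of E2 did not overlap each other. The last place held the leading ER site of the chromosome in PR-deficient cells with E2+R5020 (score 474.92, rank 9 of 5663) and with E2 (score 561.18, rank 7 of 7742). The absence of an ER site there in T47D cells is an absence from lists from which vehicle had been subtracted, and does not say that ER was absent. At 37455266 to 37457447, PR-deficient ER with E2+R5020 and with E2, T47D ER with E2, PR with E2+R5020 and with R5020 and reChIP were present. At 116879037 to 116880477, all 3 T47D ER lists met PR with E2+R5020 and PR-deficient ER with E2+R5020 and with E2. The further regions 67424033 to 67426010, 67434079 to 67436110, 86557495 to 86558857, 86737972 to 86739010 and 144818752 to 144823401 held 6 lists with at most 5 at any base. Of these, 86737972 to 86739010 held all T47D ER and PR lists and no other.

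Of the 25 regions of 5 lists, those of the p arm began at 313633, 8092703, 8335943 and 37709231. The first 2 had ER with E2+R5020 and with E2 in both lines and reChIP, and no PR list. On the inner q arm lay those that began at 58499252, 67026565 and 67035768, each with reChIP and PR with E2+R5020. In and just before the dense place of 75 ER sites lay 6 that began at 86562443, 86769924, 86782259, 86797534, 86807154 and 86833774, and 5 of these had no PR-deficient list. At 95 to 105 Mb they began at 96124528, 98360858, 99176397, 101429250 and 102132458, each with PR of E2+R5020 and PR-deficient ER of E2. Further out they began at 116791333, 117336760, 129069351, 134414813, 142273492, 144098372 and 145732648. Those at 116791333 and 129069351 held all 3 T47D ER lists and no PR-deficient list.

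The leading sites of the other lists lay elsewhere. T47D ER with E2+R5020 was led by 98315491 to 98315589 (99 bp, score 122.2, rank 56 of 19220), which T47D ER with R5020 and with E2 overlapped. T47D ER with E2 was led by 98775893 to 98777681 (score 173.31, rank 34 of 4014), in a region of 6 lists. T47D ER with R5020 was led by 86569782 to 86570095 (score 38.32, rank 50 of 5338) and PR with R5020 by 86562981 to 86563385 (score 47.17, rank 47 of 6358), both just before the dense place. PR-deficient ER with R5020 was led by 9424206 to 9424467 (score 77.69, rank 7 of 9141), which no other list held. ReChIP was led by 43094598 to 43095350 (753 bp, score 796.81, rank 11 of 9861), likewise in no other list. It lay in a run of 6 reChIP sites at 43092738 to 43097539, 4.8 kb long. How well reads can be placed there, or just before the dense place, was not examined.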

How the data were processed

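Sites were called from ChIP-seq of 26 samples in 26 groups of 1 library each, of which 10 have a list and 16, inputs, vehicle and IgG libraries among them, were not used here as lists. Bowtie2, MACS and the hg19 build are named, without versions or settings, per the submitters' processing notes. Each deposited list gives 5 values for a site: its chromosome, start and end, its length (end minus start plus 1 in every row) and a score of the authors, whose unit no source used here states. Depth is unknown. Groups came from the sample titles, and each list was matched to the sample whose title has its cell line, antibody and treatment and whose description names it.

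Sites were put in arms and 5 Mb bins by their centre, with Python 3.11.15, NumPy 2.4.6, pandas 2.3.3, SciPy 1.17.1 and matplotlib 3.10.9. Chromosome length was taken as the last base of its last site over the 10 lists. A site was shared when it overlapped another list by 1 bp or more. The lowest 2 scores are the lowest 2 distinct values of a list, and ties in rank were ordered by length and then position. For the higher-scoring 50% of a list, ties at the cut were drawn at random. The counting was tested on simulated sites with planted overlaps, runs and arm counts, all recovered. No test was made between lists. The members and the rules were chosen with earlier results of these data known. Named sites are the highest-scoring site of each list, the fullest bins, the fullest run of each list, regions of 5 or more lists and the sites next to the borders. The runs beside the empty stretch and the limits of 35 and 115 Mb were added after seeing the counts. A planned search for genes near sites was not run, because no annotation of hg19 was used. Alternatives were the higher-scoring 50% of each list, sites near empty stretches left out, the window kept, moved bins, runs of 20 and 100 kb, and stricter overlap, and 2 more were added after seeing the data.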

Additional observations from a re-analysis of the deposited data

Results flagged for a closer look

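Of 15 contrasts between treatments of ER, 3 for each of 5 measures on chromosome 8, 5 went in opposite directions in the PR-deficient and the T47D library. With 1 library per group these differences were not tested. R5020 against E2 changed the share of the list on chromosome 8 by -0.814 percentage points in PR-deficient cells and by 3.54 in T47D cells, a difference of -4.35. E2+R5020 against R5020 changed it by 0.864 points in PR-deficient cells and by -2.61 in T47D cells, a difference of 3.48. For the share of chromosome 8 sites in dense stretches, E2+R5020 against E2 gave -10.6 points in PR-deficient cells and 21 in T47D cells, a difference of -31.6. A run is easier to reach in a list of more sites, and the number of sites moved the same way. It was 223 with E2+R5020 and 301 with E2 in PR-deficient cells, and 891 and 149 in T47D cells. The part of list size was not tested. For the share also in at least 1 other list, E2+R5020 against E2 gave 12.6 points in PR-deficient cells and -43.8 in T47D cells, a difference of 56.4. E2+R5020 against R5020 gave 43.8 points in PR-deficient cells and -9.99 in T47D cells, a difference of 53.8. Site length moves with the share in another list: the E2+R5020 sites had a median of 1328 bp in PR-deficient cells and 219 bp in T47D cells. In the same order of lines, the median was 1074 and 1107 bp with E2, and 231 and 250 bp with R5020. The part of length in these contrasts was not tested.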

How the results depend on the processing

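No paired analysis was possible because every treatment has a single library per antibody. The depth and the calling threshold, which limit any count of sites, are unknown. A value below is named where it left the 95% interval of the value reported; the cause was not tested. Keeping the window moved no chromosome or p arm share, and neither did leaving out the lowest score of each list move a p arm share or a fullest bin.

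In the higher-scoring 50% of each list, the chromosome 8 share was 4.3% for T47D ER with E2+R5020, 7.21% for PR with E2+R5020 and 7.8% for PR with R5020. The reChIP p arm share became 28.3% and its fullest bin 14.7%. The share in dense stretches became 10.3% and 9.03% for PR-deficient ER with R5020 and E2, 20.8% and 11.7% for T47D ER with E2+R5020 and R5020, 21.2%, 12.5% and 14.1% for PR with E2+R5020, R5020 and E2, and 41% for reChIP. The share in another list became 27.9% for PR-deficient ER with R5020, 18.2% for T47D ER with E2+R5020, 17.3% and 16.2% for PR with R5020 and E2, and 26.7% for reChIP. Without sites near empty stretches, T47D ER with R5020 had 8.05% on chromosome 8, and the p arm share was 18.4% for PR-deficient ER with R5020, 23.6% for T47D ER with E2+R5020 and 16.9% for reChIP.

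With bins moved by 2.5 Mb, the fullest bin held 29.9% for PR-deficient ER with R5020 and 15.9%, 10.9% and 25% for PR with E2+R5020, R5020 and E2. Without the stretch at 86728941 to 86837670, it held 8.09% for T47D ER with E2+R5020. Runs within 20 kb held 2.24%, 12.8% and 11.6% of the sites of PR-deficient ER with E2+R5020, R5020 and E2, 19.6%, 10.6% and 0% of T47D ER, 20.3%, 12.9% and 13.3% of PR and 34% of reChIP. Within 100 kb the values in the same order were 24.7%, 42.7% and 37.9%, 37.6%, 45% and 16.1%, 62.1%, 52.5% and 57.2%, and 54.9%.

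Where the overlap had to cover 50% of both sites, the share in another list was 74.9%, 8.9% and 64.1% for PR-deficient ER with E2+R5020, R5020 and E2, 13.8%, 21.7% and 48.3% for T47D ER, 14.4%, 5.73% and 11.8% for PR and 21.9% for reChIP. A pair of sites of very unequal length cannot meet this rule. With centres within 200 bp it was 66.8%, 26% and 61.1% for PR-deficient ER, 55.7% for T47D ER with E2, 17.2% for PR with R5020 and 29.9% for reChIP.

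For pairs under the 50% rule, PR-deficient sites lay in the T47D list in 1.79% with E2+R5020 and 1.42% with R5020. Sites of R5020 and of E2 lay in the list of both hormones in 10.3% and 2.01% for T47D ER and 2.15% and 6.82% for PR, and R5020 sites of PR-deficient ER in 0.356%. R5020 sites lay in the E2 list in 0.517%, 1.25% and 0.356% for T47D ER, PR and PR-deficient ER. ER sites lay at PR sites in 3.59%, 2.58% and 0% with E2+R5020, R5020 and E2, and reChIP sites at ER and PR sites in 10.7% and 7.87%. With centres within 200 bp, PR-deficient sites of E2+R5020 lay in the T47D list in 5.83%, T47D ER sites of E2 in the list of both in 16.8%, PR-deficient R5020 and E2 sites in the list of both in 8.9% and 40.5%, and the R5020 sites in that of E2 in 7.83%.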
